A study of Mus musculus with 32 samples.

Results

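The comparison follows the first 6 h after the B-cell transcription factor Ebf1 was switched on in Ebf1-deficient fetal liver cells. It rests on 4 of the 32 arrays of the series, chosen by their labels: 2 arrays of cells treated for 6 h and 2 arrays of cells at 0 h. The spread was estimated from all 8 arrays of that time course, which also held 2 arrays each at 12 h and 24 h. The cells came from the fetal livers of E14.5 C57BL/6J embryos with the genotype Ebf1-/-. They grew on OP9, a mouse stromal cell line, with KIT ligand, FLT3L and interleukin-7 at 10 ng/mL each. They had been infected to carry Ebf1-ER, a fusion of Ebf1 to the hormone-binding part of the estrogen receptor, and sorted for the fluorescent marker GFP. The 6 h cells had 4-hydroxytamoxifen at 0.1 uM for 6 h, and the 0 h cells had none. The gene deletion, the stroma, the cytokines and Ebf1-ER were common to both groups, and no cells given 4-hydroxytamoxifen without Ebf1-ER entered the comparison. The effects of Ebf1-ER, of 4-hydroxytamoxifen and of 6 h of handling and culture cannot be told apart. Whether the arrays of a time came from separate cultures is not stated, so the p-values measure a spread between arrays that may be technical.

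Ebf1 is required for lymphoid progenitors to become pro-B cells. It binds regulatory regions of B-lineage genes, such as those of the surrogate light chain, the CD79 signalling chains and Pax5, and it restrains genes of other blood lineages, among them Id2 and Gata3. Progenitors without Ebf1 stop before the pro-B stage but can be kept growing on stroma with interleukin-7. The estrogen receptor part keeps a fusion protein inactive until 4-hydroxytamoxifen binds it, which sets a start time for the factor.

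Within 6 h a broad set of transcripts stood away from their 0 h values. The values were log2 signals that had been centred for each probe set on its median over the 8 arrays, so they show differences between arrays and no expression levels. Each gene was represented by its most variable probe set, and 18194 genes were tested with limma. At an adjusted p under 0.05, 3391 genes were higher at 6 h (18.6%) and 2991 lower (16.4%), which together were 6382 genes or 35.1%. Each list count below is to be read beside these shares of 18.6% higher and 16.4% lower. A change of at least 1 on the log2 scale, which is 2-fold, was called for 966 genes higher (5.31%) and 832 lower (4.57%), 1798 or 9.88% in all. The 0 h and 6 h arrays did not overlap for 10980 genes, which is 60.3%, and all 6382 called genes were among them. The median change over all genes was 0.03 with quartiles of -0.22 and 0.27, and the median standard error was 0.12. In the plot of all genes the decreases reached further than the increases: 10 genes fell by at least 4 log2 units and 3 rose by as much.

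**Figure D1:**
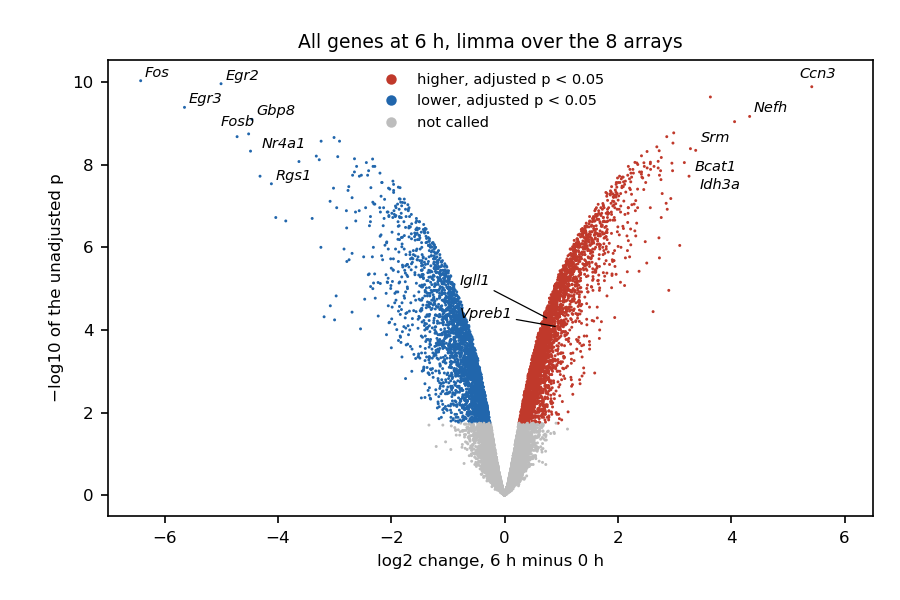
Each point is 1 of the 18194 genes, with the log2 change from 0 h to 6 h on the x axis and the -log10 of limma's unadjusted p on the y axis; red points were higher and blue points lower at an adjusted p under 0.05. Fos lies furthest to the left at -6.42 and Ccn3 furthest to the right at 5.42, while the surrogate light chain genes Igll1 and Vpreb1 lie among the smaller increases.

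The 0 h arrays stood apart from the other 6. A first principal component held 70.15% of the variance over the 8 arrays, and the standard deviation of the centred values was 0.52 and 0.51 on the 0 h arrays and 0.19 on each 6 h array. Because the medians used for centring come mostly from later arrays, quantile normalization of these values forces the wider spread at 0 h onto that of the others, and 3350 genes were then called, 632 of them with a change of at least 1. Of 609 called genes that were named or in a list, 556 had a smaller change after it and 16 turned direction, while several genes with their lowest values at 6 h had a larger one. Where it ended, turned or made a call of a gene named here, this is stated beside the gene. Replicate arrays differed by a median of 0.15 at 0 h and 0.13 at 6 h. Since RNA was measured in bulk, fewer cells of a type and less RNA per cell cannot be told apart.

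Ebf1 itself, the targeted gene, gave no check of the knockout, because both groups carried the deletion and the arrays do not separate the disrupted gene from the transcript of the vector. Its values were 0.70 and 0.67 at 0 h and 0.06 and 0.10 at 6 h. The groups did not overlap, and the signal fell 1.53-fold (-0.61 ± 0.08 on the log2 scale, where ± gives the standard error here and below, with 2 arrays in each group; limma's adjusted p = 0.00082). It had 5 probe sets, of which 4 were lower and the other did not pass. The call ended under quantile normalization (-0.27, adjusted p = 0.077).

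The surrogate light chain genes had risen by 6 h, while the signalling chains of the receptor complex did not pass the test. The surrogate light chain is a pair of proteins, encoded by Igll1 and Vpreb1, that stands in for an immunoglobulin light chain in early B cells. Igll1 stood at -1.24 and -1.29 at 0 h and at -0.57 and -0.47 at 6 h. Both 6 h arrays lay above both 0 h arrays, a 1.67-fold rise (log2 change 0.74 ± 0.09, adjusted p = 0.00046). It continued upward, with 0.56 and 0.47 at 12 h and 2.29 and 2.35 at 24 h, and the step from 6 h to 24 h was 2.85 (adjusted p = 2.4e-05). Vpreb1 stood at -0.98 and -1.16 at 0 h and at -0.22 and -0.13 at 6 h. The groups again did not overlap, and the rise was 1.86-fold (0.89 ± 0.12, adjusted p = 0.00066), followed by a step of 1.08 from 6 h to 24 h. Only 1 of the 2 probe sets of Igll1 passed, and the other changed by 0.15 ± 0.19. Under quantile normalization the Igll1 change turned to -0.09 (adjusted p = 0.74) and that of Vpreb1 was 0.35 (adjusted p = 0.19).

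Of 18 measured genes of the surrogate light chain and B-cell receptor complex, 6 rose (33.3%), 5 fell (27.8%) and 7 did not pass. Among all genes 18.6% rose and 16.4% fell. The list median was -0.15 beside 0.03 over all genes. The other increases were in signal transducers of the receptor: the adaptor Bank1 (0.84 ± 0.09), the kinase Btk (0.64 ± 0.09), the phospholipase Plcg2 (0.49 ± 0.09) and the adaptor Pik3ap1 (0.48 ± 0.10). The kinases Syk (-1.19 ± 0.12) and Blk (-0.76 ± 0.10) fell, as did Fcrla (-1.02 ± 0.17), Cd72 (-0.62 ± 0.09) and the phosphatase Ptpn6 (-0.42 ± 0.10, not called after quantile normalization). The receptor's signalling chains did not pass the test. Cd79a stood at 0.18 and -0.06 at 0 h and at -0.28 and 0.06 at 6 h, with overlapping groups (-0.17 ± 0.15, adjusted p = 0.46). Cd79b stood at -0.09 and -0.46 at 0 h and at 0.09 and 0.11 at 6 h, a change of 0.38 ± 0.13 that missed the threshold (adjusted p = 0.052). Vpreb3, the adaptor Blnk and the surface glycoprotein Cd24a changed by 0.03 ± 0.15, -0.47 ± 0.16 and -0.26 ± 0.11, none of them called. Cd24a did so later: its step from 6 h to 24 h was 2.27 (adjusted p = 7.4e-05). Blnk and Cd79b were called in some of the alternatives, Blnk as lower and Cd79b as higher.

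The recombinase genes and Dntt were lower at 6 h. Of 10 measured V(D)J recombination genes 5 fell, 2 rose and 3 did not pass, beside 16.4% of all genes lower and 18.6% higher. Dntt, the terminal transferase that adds bases at immunoglobulin gene joints, stood at 2.97 and 3.26 at 0 h and at 0.09 and 0.10 at 6 h. The groups lay far apart, an 8.11-fold decrease (-3.02 ± 0.14, adjusted p = 6.4e-06). Rag1, a subunit of the recombinase, stood at 0.69 and 0.93 at 0 h and at -0.52 and -0.57 at 6 h (-1.36 ± 0.11, adjusted p = 5.9e-05). Rag2, its partner, stood at 0.27 and 0.51 at 0 h and at -0.70 and -0.54 at 6 h (-1.01 ± 0.11, adjusted p = 0.00032). Neither gene's groups overlapped. Both were higher again at 24 h than at 6 h, Rag1 by 1.01 and Rag2 by 1.20, whereas Dntt was not (-0.29, adjusted p = 0.25). Among the end-joining factors the Ku subunit Xrcc6 fell (-1.56 ± 0.09) on 1 of its 2 probe sets, and its partner Xrcc5 (0.89 ± 0.11) and the kinase Prkdc (0.73 ± 0.11, not called after quantile normalization) rose.

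Receptors for the cytokines in the culture were lower as well. In the list of interleukin-7 receptor, STAT5 and SOCS genes 9 of 17 fell (52.9%) and 2 rose (11.8%). The shares over all genes were 16.4% lower and 18.6% higher. Il7r, the interleukin-7 receptor chain, stood at 1.27 and 1.77 at 0 h and at -0.17 and -0.22 at 6 h, a 3.29-fold decrease (-1.72 ± 0.16, adjusted p = 0.00014). Kit, the receptor of KIT ligand, changed by -1.28 ± 0.09 and Flt3, the receptor of FLT3L, by -0.99 ± 0.09. The cytokine signalling inhibitor Socs3 (-2.08 ± 0.14) and the transcription factors Bcl6 (-1.99 ± 0.12) and Stat3 (-1.34 ± 0.13, but -0.58 with adjusted p = 0.055 after quantile normalization) fell too. A pair of STAT5 targets moved the other way. Pim2, a survival kinase, stood at -0.66 and -0.38 at 0 h and at 0.86 and 0.93 at 6 h, a rise of 1.41 ± 0.11, and was back at -0.95 and -1.01 at 24 h. Cish, a feedback inhibitor, rose by 0.96 ± 0.10.

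Transcription factors of B-cell specification mostly fell or did not pass. Of 23 measured, 11 fell (47.8%), 1 rose (4.3%) and 11 were not called, beside 16.4% of all genes lower and 18.6% higher. The list median was -0.34. Pax5, which holds cells in the B lineage, stood at -0.09 and -0.36 at 0 h and at -0.02 and 0.18 at 6 h. Its groups did not overlap, yet the change did not pass (0.31 ± 0.13, adjusted p = 0.12). Foxo1, needed for Rag and Il7r expression, stood at -0.02 and 0.01 at 0 h and at -0.24 and -0.32 at 6 h (-0.28 ± 0.10, adjusted p = 0.064), with 2 of its 4 probe sets lower. It was called lower in 3 of the alternatives, quantile normalization among them (-0.38, adjusted p = 0.044). It was higher by 0.98 at 24 h than at 6 h. Tcf3, which encodes the E proteins E12 and E47, was the member that rose (0.32 ± 0.10, adjusted p = 0.038), a call lost in 9 of the alternatives. Its relatives Tcf12 (-1.74 ± 0.27) and Tcf4 (-1.21 ± 0.10) fell, as did Bach2 (-1.61 ± 0.12), Ets1 (-1.50 ± 0.14), Irf8 (-1.02 ± 0.11) and Ikzf1 (-0.68 ± 0.09). After quantile normalization 7 members in place of 11 were lower, and Irf8 was at -0.10 (adjusted p = 0.79).

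Of 23 inhibitors of E proteins and factors of other lineages 10 fell (43.5%), 1 rose (4.3%) and 12 did not pass. The shares of all genes were 16.4% lower and 18.6% higher. The one that rose was Cebpb (0.55 ± 0.11), a factor of myeloid cells, and 2 were higher without 0 h replicate 1 or 0 h replicate 2. Id2, which blocks E proteins and favours innate lymphoid fates, stood at 2.65 and 2.47 at 0 h and at -0.33 and -0.05 at 6 h. The arrays of the groups were separated by more than 2 log2 units, a 6.73-fold decrease on 3 of 3 probe sets (-2.75 ± 0.12, adjusted p = 6.4e-06). Gata3, a T-cell factor, stood at 0.98 and 1.15 at 0 h and at -0.15 and -0.21 at 6 h (-1.24 ± 0.11, adjusted p = 9.3e-05). The Notch pathway genes Notch1 (-1.89 ± 0.10) and Hes1 (-2.36 ± 0.11) and the myeloid factor Cebpd (-1.35 ± 0.12) fell. Id1 (0.20 ± 0.25) and Id3 (-0.14 ± 0.27) were not called. Quantile normalization left 6 members lower.

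The steepest decreases were in the early response genes, transcription factors that cells switch on within minutes of stimulation. Of 24 measured, 21 fell and none rose, against 16.4% of all genes lower, and 19 of them fell by at least 1, with a list median of -1.98. Fos, a subunit of the AP-1 factor, stood at 6.78 and 6.62 at 0 h and at 0.30 and 0.26 at 6 h. The 6 h arrays lay more than 6 log2 units below, an 85.8-fold decrease (-6.42 ± 0.13, adjusted p = 8.1e-07). Egr2, a zinc finger factor, stood at 5.13 and 4.95 at 0 h and at 0.01 and 0.06 at 6 h, a 32.1-fold decrease (-5.01 ± 0.10, adjusted p = 8.1e-07). Egr3, its relative, fell 50.2-fold (-5.65 ± 0.14) on the probe set used, while its other probe set did not pass. Egr1 stood at 4.74 and 4.71 at 0 h and at 0.39 and 0.10 at 6 h (-4.48 ± 0.15). The AP-1 subunits Fosb (-4.72 ± 0.15), Jun (-3.32 ± 0.12) and Junb (-2.07 ± 0.11), the nuclear receptor Nr4a1 (-4.52 ± 0.14) and the factors Klf2 (-2.91 ± 0.09) and Klf6 (-2.79 ± 0.22) moved with them. Members with values near 0 were Fosl1 (-0.22 ± 0.13), Egr4 (-0.11 ± 0.11) and Jund (-0.07 ± 0.17). The low values held: the list medians against the same 0 h arrays were -2.21 at 12 h and -2.38 at 24 h.

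In the list of ERK feedback genes 12 of 18 fell and 2 rose, with a median of -1.14, beside 16.4% of all genes lower and 18.6% higher. Most members are feedback inhibitors of the ERK kinase pathway, which growth factor signals induce. The list also held Lif, a cytokine, and the ETS factors Etv4 and Etv5. Dusp1, a phosphatase that shuts off MAP kinases, stood at 3.79 and 3.18 at 0 h and at 0.12 and 0.05 at 6 h, a 10.5-fold decrease (-3.40 ± 0.19, adjusted p = 1.4e-05). The ERK phosphatases Dusp6 (-2.95 ± 0.10) and Dusp5 (-2.44 ± 0.09) and the receptor inhibitors Errfi1 (-2.23 ± 0.21) and Spry2 (-1.31 ± 0.11) fell. The ETS factor Etv5 rose (1.85 ± 0.15), as did Dusp7 (0.79 ± 0.12). The probe sets of Spred2 disagreed, with 1 lower and 2 higher of 5. The promoter windows of Dusp1 and of the growth inhibitor Btg2 held the cyclic AMP response element TGACGTCA, a binding sequence of CREB and ATF factors, as did those of other members that fell, such as Errfi1, Maff (-1.11 ± 0.10) and Cenpe, and of members that rose, such as Umps and Noc4l (1.80 ± 0.10). Dusp1 and Btg2 are shown because they fell furthest of the members that held it. The stretches below are from RefSeq on GRCm38.p6, run 5′ to 3′ on the gene's strand, and show the element in capitals, at chr17:26508583-26508640 (minus strand) for Dusp1 and at chr1:134079289-134079346 (minus strand) for Btg2. The Dusp1 stretch also holds an E-box, cacgtg, in lower case.
Dusp1: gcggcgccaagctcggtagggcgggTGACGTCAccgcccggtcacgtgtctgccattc
Btg2: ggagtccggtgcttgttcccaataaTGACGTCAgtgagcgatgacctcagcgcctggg

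The element was rare in every set. Promoter windows ran from 250 bases before to 50 bases after the start, and both strands were read. TGACGTCA was found in 3.61% of the 664 genes with a promoter among those lower by at least 1, in 3.69% of the 812 higher by at least 1, and in 2.92% of the 14453 tested genes with a promoter. The AP-1 sequence TGACTCA was in 6.63% of the lower and 3.33% of the higher genes, beside 5.33% of all tested. CCCNNGGGA, a short form of the EBF binding sequence in which N is any base, was in 9.34% of the lower, 7.39% of the higher and 9.01% of all tested genes. These are matches of letters in a short window and are given as a description.

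Genes of NF-kB signalling and homing receptors were lower more often than the 16.4% of all genes, and most cytokines did not pass. Of 17 NF-kB subunits and feedback genes 11 fell, 1, Nfkbib, rose and 5 did not pass. The largest decreases were of the feedback regulators Nfkbiz (-2.17 ± 0.09) and Tnfaip3 (-1.86 ± 0.12) and of the caspase-8 regulator Cflar (-1.72 ± 0.14). Of 18 cytokines and chemokines 6 fell and 12 did not pass. Tnfsf11, the cytokine RANKL, changed by -2.45 ± 0.13. Ccl3, a chemokine, stood at 2.95 and 3.07 at 0 h and at 0.97 and 0.95 at 6 h (-2.05 ± 0.09, adjusted p = 6.4e-06). It went on falling, to -2.33 and -2.41 at 24 h, and quantile normalization turned its 6 h change to 0.05 (adjusted p = 0.97). Il6, Il1b, Tnf and Csf2 had changes between -0.29 and 0.07, none called. Of 16 chemokine and homing receptors 10 fell. The integrin chain Itga4 stood at 3.15 and 3.37 at 0 h and at -0.02 and 0.05 at 6 h, a 9.44-fold decrease on 5 of 5 probe sets (-3.24 ± 0.10, adjusted p = 3.3e-06), and the chemokine receptors Ccr2 (-1.88 ± 0.15) and Ccr9 (-1.63 ± 0.13) fell. Quantile normalization left 6 NF-kB genes, 2 cytokines and 5 receptors lower.

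Interferon response genes were lower almost without exception. Of 22 type I interferon response genes 21 fell and the other, Oasl1, changed by -0.19 ± 0.10, with a median of -1.21. Usp18, which dampens interferon signalling, stood at 2.26 and 2.60 at 0 h and at 0.04 and 0.08 at 6 h (-2.37 ± 0.14, adjusted p = 1.6e-05). Oasl2 (-2.33 ± 0.12) and the antiviral GTPase Mx1 (-2.31 ± 0.12) were close to it, and the factor Irf7 changed by -1.28 ± 0.20 (-0.54 after quantile normalization, adjusted p = 0.059). Ifit3, Oas1a, Irf9, Stat2, Ddx58 and Zbp1 lost their calls after quantile normalization as well. The median stayed low at 12 h (-1.37) and 24 h (-1.36) against the same 0 h arrays. Of 10 GTPases and related genes that interferon-gamma induces 8 fell, and 4 did after quantile normalization. Gbp8 stood at 4.61 and 4.83 at 0 h and at 0.21 and 0.31 at 6 h, a 22.0-fold decrease (-4.46 ± 0.12, adjusted p = 2.1e-06), and Gbp6 fell 14.6-fold (-3.86 ± 0.22). The remaining members lay between -0.97 and 0.00, and Gbp2 (-0.27 ± 0.13) and Gbp3 (0.00 ± 0.14) did not pass.

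Genes that build ribosomes rose together. All 52 measured genes of RNA polymerase I and ribosomal RNA processing were higher at 6 h, against 18.6% of all genes, and 44 rose by at least 1, with a list median of 1.77 and a range from 0.59 to 2.98. Polr1b, a core subunit of the polymerase that makes ribosomal RNA, stood at -2.62 and -2.90 at 0 h and at 0.22 and 0.17 at 6 h. Both 6 h arrays lay almost 3 log2 units above, a 7.73-fold rise (2.95 ± 0.11, adjusted p = 4.4e-06). Rrp12, a factor of ribosome maturation and export, rose 7.91-fold (2.98 ± 0.09), Taf1d, of the polymerase I promoter complex, by 2.76 ± 0.10 and the small nucleolar protein Nop56 by 2.46 ± 0.09. Smaller rises belonged to the polymerase subunits Polr1d (0.59 ± 0.11, not called after quantile normalization) and Polr1c (0.62 ± 0.09) and to nucleophosmin, Npm1 (0.87 ± 0.09). Nucleolin, Ncl, rose by 2.10 ± 0.13 and the methyltransferase fibrillarin, Fbl, by 1.58 ± 0.09. No probe set of these 52 genes was lower. The medians against 0 h were 1.92 at 12 h and 1.52 at 24 h.

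The E-box CACGTG, the binding sequence of MYC, MAX and related factors, was counted in the same windows, as a description without a test. It was in 16.63% of the 812 genes higher by at least 1, in 11.9% of the 664 lower by at least 1 and in 10.23% of all tested genes with a promoter, beside 8.09% of the 27025 genes in the promoter table. Of the 47 ribosome genes with a promoter 10 held it (21.28%), and of 24 nucleotide synthesis genes 5 did (20.83%). The share was as high in the early response list, whose members fell: 4 of 19 (21.05%). The members of 4 lists that rose most among those with an E-box before the start are shown, from RefSeq on GRCm38.p6, 5′ to 3′ on the gene's strand, with the E-box in capitals. They are Nop2, a ribosomal RNA methyltransferase (chr6:125131798-125131853, plus strand, 2.24 ± 0.09), Atic, which makes purines (chr1:71557124-71557155, plus strand, 2.22 ± 0.14), Slc16a1, a lactate transporter (chr3:104638439-104638494, plus strand, 2.23 ± 0.10), and Timm8a1, of mitochondrial import (chrX:134541876-134541920, minus strand, 2.57 ± 0.10).
Nop2: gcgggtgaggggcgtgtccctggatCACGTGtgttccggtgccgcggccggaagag
Atic: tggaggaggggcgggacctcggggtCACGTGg
Slc16a1: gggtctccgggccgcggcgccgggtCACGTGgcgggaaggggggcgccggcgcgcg
Timm8a1: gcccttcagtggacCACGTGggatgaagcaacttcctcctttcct

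Transcripts of MYC itself did not pass the test. Myc stood at -0.21 and -0.03 at 0 h and at 0.10 and 0.11 at 6 h (0.23 ± 0.10, adjusted p = 0.12), and it was lower by 1.16 at 24 h than at 6 h. Of 13 genes of the MYC, MAX and MXD network 3 rose (23.1%) and 7 fell (53.8%), beside 18.6% and 16.4% of all genes. Those that rose were Mycn (0.65 ± 0.12), Max (0.53 ± 0.09), the partner of MYC, and Mlx (0.53 ± 0.10, not called after quantile normalization). Those that fell included the MXD proteins, which compete with MYC for MAX: Mxd1 (-1.69 ± 0.10), Mxd4 (-1.28 ± 0.09) and Mxi1 (-1.16 ± 0.11).

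Translation factors, tRNA synthetases and most chaperones and proteasome subunits were higher too. Of 19 translation factors 18 rose, with a median of 1.04, from Eif3c at 0.40 ± 0.11, not called after quantile normalization, to Eif2b3, a subunit of the exchange factor that recharges initiation, at 2.29 ± 0.12. The cap-binding protein Eif4e rose by 1.30 ± 0.09, and Eef2 was not called (-0.07 ± 0.18). Of 19 cytosolic tRNA synthetases 18 rose, with a median of 0.95, most of all Farsb (1.57 ± 0.09). Qars was lower (-0.37 ± 0.09), a call lost in 3 of the alternatives. Of 24 chaperones 19 rose, with a median of 1.03, led by Hsph1 (2.10 ± 0.10) and the constitutive Hspa8 (2.02 ± 0.13). The stress-induced Hspa1a (-0.56 ± 0.13) and Dnajb1 (-0.55 ± 0.11) were lower, though neither passed after quantile normalization and 1 of them did not without 0 h replicate 1 or 6 h replicate 1. Proteasome subunits rose less, 22 of 27 with a median of 0.54 and a highest value of 1.02 ± 0.10 for Psmd7, and 10 of them passed after quantile normalization.

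Mitochondrial biogenesis genes formed another rising group. All 18 measured genes of mitochondrial import and assembly rose, with a median of 0.99. Timm8a1, Timm9 (2.09 ± 0.13) and Timm10 (1.74 ± 0.13), small carriers of the space between the membranes, led them. The matrix protein C1qbp rose by 1.75 ± 0.10 and the mitochondrial transcription factor Tfam by 0.46 ± 0.10, which did not pass after quantile normalization. Of 24 mitochondrial ribosomal proteins 21 rose and none fell, with a median of 0.99 and a highest value of 1.51 ± 0.11 for Mrps18b.

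Nucleotide synthesis had the second highest list median, 1.57, with 24 of 26 genes higher and none lower. Mthfd1, which makes one-carbon units for purines, stood at -3.27 and -2.45 at 0 h and at 0.23 and -0.16 at 6 h. Its 0 h arrays lay further apart than those of most members, but the groups did not overlap. The rise was 7.45-fold (2.90 ± 0.28, adjusted p = 0.00015). Shmt1 (2.86 ± 0.09) supplies the same pool, Ppat (2.49 ± 0.11) starts purine synthesis, and Cad (2.46 ± 0.09) and Umps (2.18 ± 0.08) make pyrimidines. Genes for deoxynucleotides rose less by 6 h and more later. Ribonucleotide reductase Rrm2 changed by 0.82 ± 0.10, thymidylate synthase Tyms by 0.60 ± 0.12 and thymidine kinase Tk1 by 0.61 ± 0.14, and from 6 h to 24 h they rose further by 1.40, 1.11 and 1.40. None of the 3 passed at 6 h after quantile normalization, where Rrm2 was at -0.07, Tyms at 0.02 and Tk1 at -0.21.

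Polyamine genes moved both ways. Srm, spermidine synthase, stood at -2.91 and -3.17 at 0 h and at 0.18 and 0.29 at 6 h, a 9.70-fold rise (3.28 ± 0.11, adjusted p = 4e-06). Odc1, the first enzyme of the pathway, rose by 1.36 ± 0.21, which did not pass after quantile normalization (0.75, adjusted p = 0.073). The genes that fell act in polyamine breakdown or restrain synthesis. They were the spermine oxidase Smox (-2.53 ± 0.10), the acetyltransferase Sat1 (-0.94 ± 0.09) and the antizyme Oaz2 (-0.60 ± 0.09, not called after quantile normalization). The antizyme Oaz1 was not among those that fell, and after quantile normalization its change was -0.17 (adjusted p = 0.29). In all 5 of 9 rose and 3 fell, beside 18.6% and 16.4% of all genes, and 3 were higher after quantile normalization.

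Most transcripts of amino acid supply and sugar use rose. Of 21 genes of amino acid supply and the ATF4 response 14 rose and 1 fell, with a median of 0.85. Bcat1, which transaminates branched amino acids, stood at -3.36 and -3.65 at 0 h and at -0.30 and -0.36 at 6 h, a 9.01-fold rise (3.17 ± 0.12, adjusted p = 4.4e-06). The transporters Slc7a5 (2.58 ± 0.10) and Slc7a1 (1.88 ± 0.09) followed. The stress factor Ddit3 was lower (-1.09 ± 0.21), but not after quantile normalization (-0.62, adjusted p = 0.19), and Atf4 itself was not called (0.56 ± 0.20). Of 18 genes of glucose transport and glycolysis 13 rose and 3 fell. Slc16a1, hexokinase Hk2 (2.13 ± 0.09) and the regulator Pfkfb3 (1.63 ± 0.09) rose most. Hk1 (-0.66 ± 0.12), Slc2a3 (-0.50 ± 0.12) and Pfkm (-0.36 ± 0.11) fell, none of them after quantile normalization and 1 of the 3 without 6 h replicate 1.

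The plot of gene lists sets these groups side by side. Lists for making ribosomes, proteins, nucleotides and mitochondria lie to the right of 0 with most members, and lists for early response, interferon and cell rest lie to the left.

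**Figure D2:**
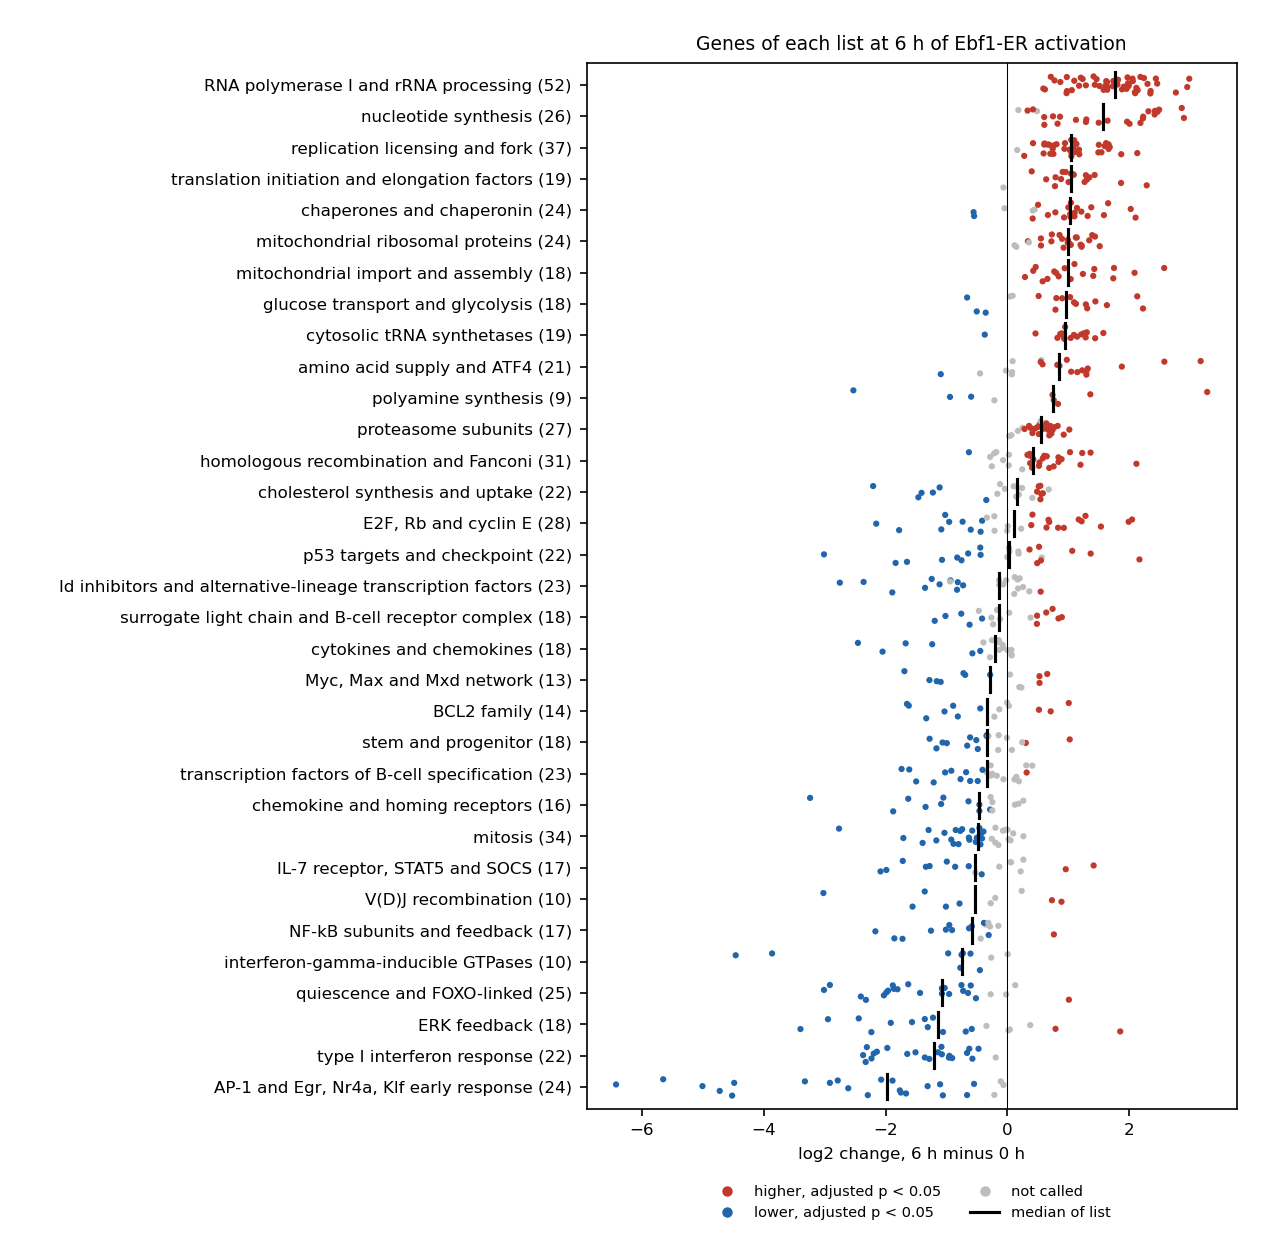
Each point is a gene, in rows by list with the number measured in brackets, and the x axis is its log2 change from 0 h to 6 h; colours give the call at an adjusted p under 0.05 and black bars the list medians. The medians run from -1.98 for the early response genes to 1.77 for RNA polymerase I and ribosomal RNA processing, where all 52 points are red.

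Cell cycle genes moved in opposite ways by phase at 6 h. Genes that license and copy DNA rose in 36 of 37 cases, with a median of 1.05. Orc1 (2.13 ± 0.16), Cdc6 (1.87 ± 0.09) and Mcm2 (1.66 ± 0.09), which load the replicative helicase, were among the highest, and the sliding clamp Pcna rose by 0.60 ± 0.09. Prim2 was the exception (0.16 ± 0.15). After quantile normalization 12 of the 37 were higher, and Pcna was not among them. Mitosis genes went the other way: 23 of 34 fell and none rose, with a median of -0.48, while 1 was called higher without 0 h replicate 2. Cenpa, the histone of centromeres, stood at 1.31 and 1.55 at 0 h and at -1.47 and -1.20 at 6 h, a 6.79-fold decrease (-2.76 ± 0.13, adjusted p = 6.8e-06). Cyclin B2, Ccnb2, stood at 0.73 and 0.67 at 0 h and at -1.04 and -0.98 at 6 h (-1.71 ± 0.09). The kinesin Cenpe (-1.39 ± 0.21) and the polo kinase Plk1 (-0.74 ± 0.09) fell as well. The kinase Aurkb was not called (-0.07 ± 0.11, adjusted p = 0.67), with 0 h arrays at -0.84 and -0.60 and 6 h arrays at -0.77 and -0.81. Quantile normalization called Aurkb lower (-0.71, adjusted p = 0.0038). By construction it equalises the spreads, so level values below 0 can come out lower on the narrower 6 h arrays. After it more mitosis genes were called lower than the 23 before, all of the 34 except Kif23, Anln, Ncapg and Smc2.

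Mitosis genes were higher again at the later times. Cenpa, Ccnb2, Cenpe and Plk1 were higher at 24 h than at 6 h by 1.76, 1.90, 2.20 and 1.96, and Aurkb by 1.77 (adjusted p = 0.00013). Against the same 0 h arrays the list median went from -0.48 at 6 h to 0.59 at 12 h and 1.06 at 24 h, as the plot by time shows. Replication genes went from 1.05 to 1.63 and 1.61.

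**Figure D3:**
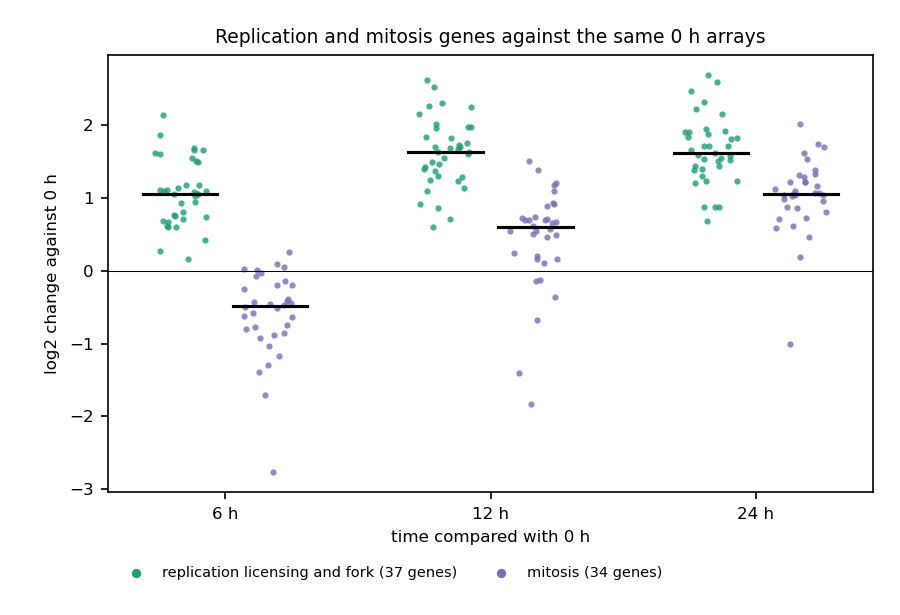
Each point is a gene of the replication (green, 37 genes) or mitosis list (purple, 34 genes), the y axis is the log2 change against the shared 0 h arrays, and black bars are medians at 6, 12 and 24 h. At 6 h the replication genes lie above 0 with a median of 1.05 while the mitosis median is -0.48; at 24 h both medians are above 1.

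Regulators of the entry into S phase were split. Of 28 genes of the E2F, RB and cyclin E list 13 rose and 9 fell, beside 18.6% and 16.4% of all genes. Ccne2, cyclin E2, stood at -2.36 and -2.25 at 0 h and at -0.17 and -0.35 at 6 h, a 4.13-fold rise (2.05 ± 0.11, adjusted p = 1.2e-05). Ccnd2, cyclin D2, rose by 1.99 ± 0.12 on 7 of 7 probe sets, Ccne1 by 1.53 ± 0.09 and E2f1 by 1.17 ± 0.12. Ccnd3, cyclin D3, fell (-2.15 ± 0.17) on 1 of 3 probe sets, and so did the inhibitors Cdkn2d (-1.78 ± 0.10), Cdkn2c (-1.02 ± 0.14) and Cdkn1b (-0.96 ± 0.16) and the pocket proteins Rb1 (-0.74 ± 0.11) and Rbl2 (-0.60 ± 0.10). Cdkn1b and Rbl2 did not pass after quantile normalization. Homologous recombination and Fanconi genes rose in 21 of 31 cases and fell in 1, Fancd2 (-0.63 ± 0.11); 2 were lower without 6 h replicate 2 and 3 after quantile normalization. Exo1, an exonuclease of DNA ends, led with 2.12 ± 0.09, and Rad51ap1 and Rad54b, partners of the strand-exchange protein, rose by 0.84 ± 0.11 and 0.84 ± 0.13. After quantile normalization 7 of the 31 were higher, with Rad51ap1 at 0.01 and Rad54b at -0.05, neither called.

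Genes of resting cells fell. In the list of quiescence and FOXO-linked genes 21 of 25 were lower and 1, Slfn2, higher, with a median of -1.08. Btg2, an inhibitor of proliferation, stood at 3.12 and 3.00 at 0 h and at 0.09 and 0.01 at 6 h, an 8.06-fold decrease (-3.01 ± 0.09, adjusted p = 3.1e-06). Its relative Btg1 (-2.41 ± 0.21), the PI3 kinase inhibitor Pik3ip1 (-2.32 ± 0.09) and Txnip (-2.03 ± 0.09), which limits glucose uptake, were lower too. Of 22 p53 targets and checkpoint genes 9 fell (40.9%) and 7 rose (31.8%), beside 16.4% of all genes lower and 18.6% higher. Trp53inp1 (-1.84 ± 0.09) and the death gene Pmaip1 (-1.65 ± 0.14) fell after Btg2, and the checkpoint kinase Chek1 (2.17 ± 0.16) rose most. The count of those higher was 4 without 0 h replicate 2, 6 h replicate 1 or 6 h replicate 2, and the count lower was 5 after quantile normalization.

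Cell death regulators of the BCL2 family were lower in 7 of 14 genes and higher in 3, beside 16.4% and 18.6% of all genes, so the share higher was near that over all genes. The count higher was 1 without 6 h replicate 2. Among the killers Pmaip1, Bmf (-1.62 ± 0.12) and Bcl2l11 (-1.03 ± 0.09) fell. Bak1 rose (0.71 ± 0.11, adjusted p = 0.002), though it was not called after quantile normalization. Bid rose too (1.01 ± 0.32, adjusted p = 0.044), a call lost in 5 of the alternatives. Among the protectors Mcl1 fell by 0.89 on the log2 scale on 6 of 6 probe sets, and Bcl2l1 rose (0.52 ± 0.13), a call lost in 4 of the alternatives. Bcl2 had no settled direction. The probe set used fell (-1.33 ± 0.17, adjusted p = 0.00051), but of its 5 probe sets 2 were lower and 3 higher, and the mean of all of them changed by 0.16 (adjusted p = 0.16). After quantile normalization 4 genes of the family were lower and none higher.

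Stem and progenitor genes fell in 10 of 18 cases (55.6%) and rose in 2 (11.1%), beside 16.4% and 18.6% of all genes. Their median was -0.34. Besides Kit and Flt3 the factors Lmo2 (-1.17 ± 0.11) and Gfi1b (-1.06 ± 0.09) fell, and Tal1 rose (1.02 ± 0.09). Hoxa7 was the other gene called higher (0.30 ± 0.10), a call lost in 8 of the alternatives. Meis1 (-0.34 ± 0.10) fell and Hoxa9 (-0.14 ± 0.10) did not pass. After quantile normalization 4 were lower, and Lmo2 and Meis1 were not among them.

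The single largest changes included genes outside these lists. Ccn3, a secreted matrix-associated protein, stood at -4.32 and -4.60 at 0 h and at 1.01 and 0.91 at 6 h, a 42.8-fold rise (5.42 ± 0.12, adjusted p = 8.1e-07). No other gene rose as far, and it fell back by 1.14 from 6 h to 24 h. Nefh, the heavy neurofilament chain, rose 20.0-fold (4.32 ± 0.11), and 2010204K13Rik (4.06 ± 0.11) and the tryptophan hydroxylase Tph1 (3.37 ± 0.11) rose as well. Trgv4, a variable segment of the T-cell receptor gamma chain, rose by 3.63 ± 0.08 on 2 of 3 probe sets, and Idh3a, a subunit of a citric acid cycle enzyme, by 3.25 ± 0.13 on 4 of 4. Arfgef3 (3.09 ± 0.21), Ifrd2 (2.97 ± 0.10) and the tRNA methyltransferase Trmt61a (2.96 ± 0.12) complete the 12 largest increases with Srm, Bcat1 and Rrp12. Among the 12 largest decreases outside the lists were Rpl3l (-4.32 ± 0.18), a form of ribosomal protein L3, Rgs1 (-4.12 ± 0.18), a regulator of G protein signalling, Ptgs2 (-4.04 ± 0.23), which makes prostaglandins, and A930003A15Rik (-3.63 ± 0.13). The plot of single arrays shows how close the 2 arrays of a time lay for genes of each kind.

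**Figure D4:**
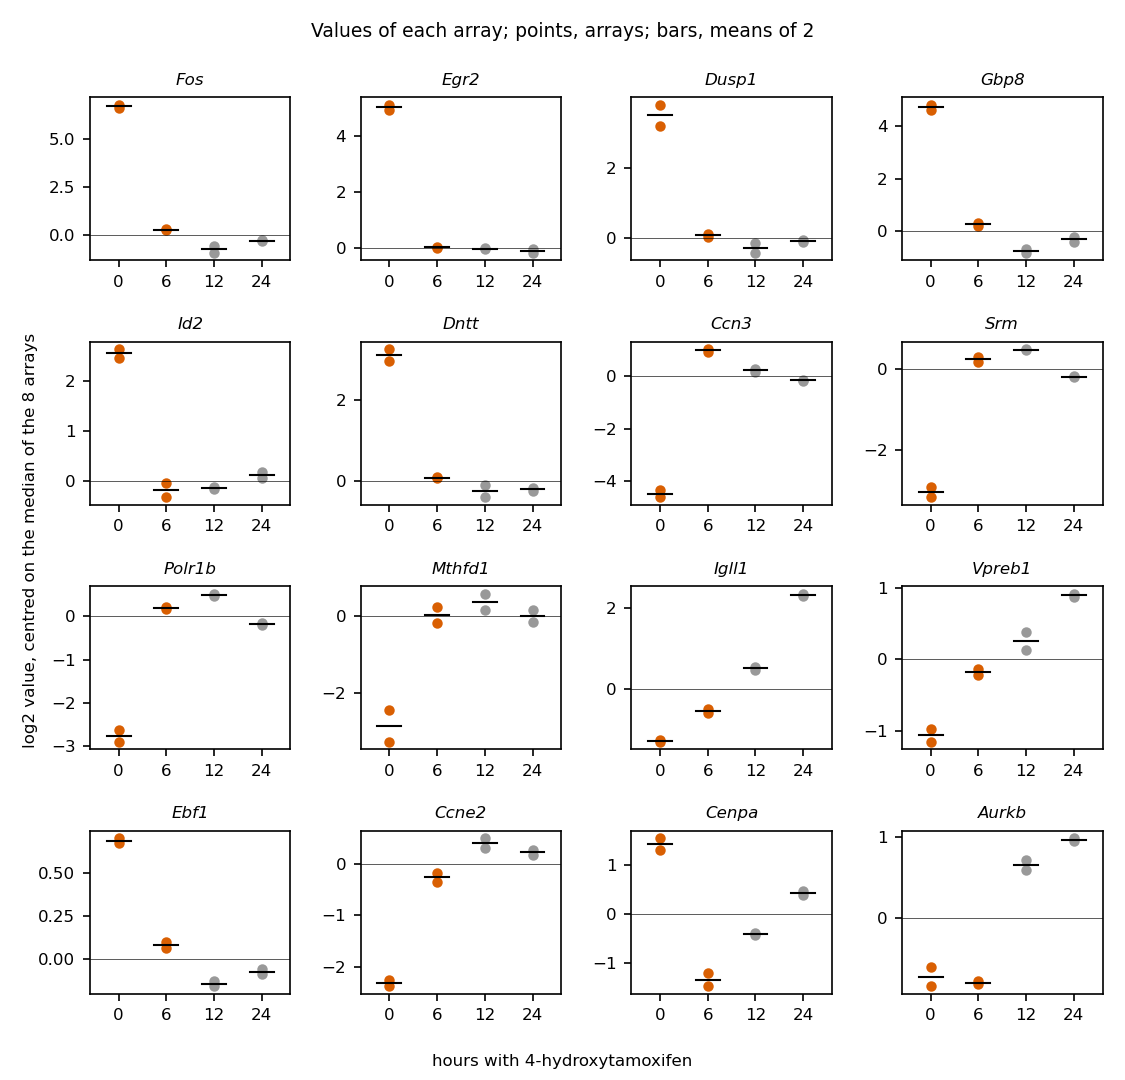
Each panel is a gene, the x axis gives hours with 4-hydroxytamoxifen, and the y axis the log2 value centred on the median of the 8 arrays, with points for arrays and bars for means of 2; the y scales differ between panels, orange marks 0 h and 6 h, and grey the later times. Fos, Egr2, Dusp1, Gbp8, Id2 and Dntt fall to near 0 by 6 h, Srm, Polr1b and Mthfd1 reach it from below, Ccn3 rises to about 1, and Igll1 and Vpreb1 rise at each time.

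Markers of the cells that the cultures could hold also differed between the times. Centred values cannot show whether a marker was present, so the labelled cell type could not be checked. Markers of B-lineage progenitors were lower in 8 of 15 (53.3%) and higher in 2 (13.3%), beside 16.4% and 18.6% of all genes. The list means were 0.60 and 0.62 at 0 h and -0.17 and -0.15 at 6 h. Besides Dntt, Il7r, Rag1 and Kit, the early B-cell marker Cd93 (-2.17 ± 0.09) and the leukocyte antigen Ptprc (-0.95 ± 0.21, not called after quantile normalization) fell. Markers of OP9 stroma were lower in 7 of 19 (36.8%) and higher in 2 (10.5%), so the share higher was below that over all genes. Their means were 1.10 and 0.49 at 0 h and 0.49 and 0.16 at 6 h. At 0 h and at 6 h the first array lay above the second, but not at 24 h. The lower 0 h array and the higher 6 h array were level. The growth-response genes Ccn2 (-3.00 ± 0.37), Ccn1 (-2.75 ± 0.21) and Thbs1 (-2.69 ± 0.31) led the decreases, while the collagens Col1a1, Col1a2 and Col3a1 had values from -0.40 to 0.65, none called, although Col1a1 was higher after quantile normalization (0.93, adjusted p = 0.023). The count lower was 4 without 0 h replicate 1 or 6 h replicate 2, and 0 after quantile normalization, and the count higher was 6 without 0 h replicate 1, 1 without 0 h replicate 2 or 6 h replicate 1, and 4 after quantile normalization.

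Markers of other blood cells changed in part. T-cell markers were lower in 8 of 14, with means of 0.55 and 0.61 at 0 h and -0.15 and -0.04 at 6 h, led by Trat1 (-2.79 ± 0.17) and Cd28 (-1.59 ± 0.10); Cd3e, Cd3d, Cd4 and Cd8a were not called. Markers of NK and innate lymphoid cells were lower in 8 of 15, with means of 0.63 and 0.73 at 0 h and 0.07 and 0.13 at 6 h, led by Klrd1 (-1.86 ± 0.10), and 2 of them, without Klrd1, after quantile normalization. Macrophage markers were lower in 7 of 16, with means of 0.35 and 0.42 at 0 h and -0.03 and 0.08 at 6 h, and 3 of them after quantile normalization. Of the macrophage markers Itgam fell by 2.37 on the log2 scale, and 2 of the 16 rose (12.5%), a share below the 18.6% of all genes. Adgre1 rose by 1.09 ± 0.11, and it was still higher after quantile normalization (0.78, adjusted p = 0.011). Mrc1 rose as well (1.07 ± 0.11, but 0.13 with adjusted p = 0.55 after quantile normalization). The complement genes C1qa, C1qb and C1qc were between -0.01 and 0.11. Granulocyte markers had 1 of 12 lower, Mpo (-0.99 ± 0.11, not called after quantile normalization), and 1 higher, Ctsg (0.27 ± 0.09), and erythroid markers 3 of 11 higher and 1, Hba-a1 (-0.29 ± 0.09), lower, beside 18.6% and 16.4% of all genes. The calls of Ctsg, Hba-a1 and the erythroid Slc4a1 (0.37 ± 0.11) were each lost in 7 of the alternatives. The granulocyte count higher was 2 without 0 h replicate 1 and 0 without any other of the 4 arrays, the erythroid count lower was 0 without 0 h replicate 2 or either 6 h array, and 1 erythroid marker was higher after quantile normalization. These lists moved with the time of sampling, as did the interferon, cytokine and receptor lists, and their part in those results was not tested.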

How the data were processed

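Total RNA was labelled with an Affymetrix 3' amplification kit, per the labels' protocols. The authors deposited log2 values, and the submitters' processing notes name RMA; no source names the base of the logarithm, for which 2 was assumed. The values proved to be centred per probe set, with medians of 0 over the 8 arrays. Of 45101 probe sets 34958 had 1 gene symbol, 932 several and 9211 none; 34754 were matched through gene IDs and 204 kept the array's name. The most variable probe set stood for each of 18194 genes, 9012 of which had more than 1; this favours large differences.

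The test was limma's moderated one (version 3.58.1, run under R 4.3.3), with time as a factor over 8 arrays and two-sided p-values adjusted by Benjamini-Hochberg over all genes. With 2 arrays against 2 an exact permutation test cannot pass 0.05, so none was used. On simulated data for this comparison, 189 of 200 genes changed by 1 log2 unit were recovered (94.5%) with 8 false calls among 18194 genes. The simulated noise was independent between arrays and genes. It held neither the wider spread at 0 h nor the choice of the most variable probe set, and far fewer genes changed. These figures therefore give no error rate for the calls made here.

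Named genes were 22 fixed ones (20 measured), the 12 largest called changes each way without overlap of arrays, and up to 3 each way from each of 40 lists, with any member given where a list is described. Genes and lists were chosen with earlier results of these data known, so their counts are descriptions. Members without a probe set of a single gene were not analysed here. Alternatives changed the probe set, filter, normalization, arrays, variance model and pairing. Promoters are RefSeq's, by symbol, for 14453 genes.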

Additional observations from a re-analysis of the deposited data

How the results depend on the processing

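The median-centred arrays, robust eBayes, the more variable genes alone and the 4 arrays alone kept the count of called genes within 1.5 times of 6382 and of 1798. The mean of all probe sets gave 1078 genes with a change of at least 1, every probe set as its own feature gave 11172 calls among 34958 features, and quantile normalization gave 3350 calls, 632 of them at least 1; the share of higher genes was then 61.5% beside 53.1%. Its effect follows from its construction, since it equalises spreads that differ between the times. Leaving out a 0 h or 6 h array in turn gave 5260 to 5987 calls and 1777 to 1928 with a change of at least 1. Without the 24 h arrays in the spread, an alternative chosen after seeing the data, 6038 were called. Replicate numbers did not pair the arrays: the correlations of replicate differences between times ran from -0.25 to 0.15, and a fit with the replicate number as a block called 6122 genes, 1795 of them at least 1. Of 187 named genes 179 were called, which follows largely from their choice, since genes beyond the fixed list were picked among called genes. Of the 179, 139 kept their call under every setting in which they were tested. Genes dropped by the variance filter were not counted as lost, and the fit of every probe set as its own feature was left out. No such share was taken over all genes, so the 139 do not measure how stable the calls were in general. Among the 187, directions turned for Bcl2 with the mean of its probe sets (0.1645) and, after quantile normalization, for Ccl3 (0.0532) and Igll1 (-0.0905); with the other list members, 16 called genes turned after it, Rrm2, Tk1 and Rad54b among them, and 16 not called before were called. With 2 arrays a group and no expression levels, signal over background could not be judged.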

Other observations

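Cholesterol genes did not move as a group. Of 22 genes of cholesterol synthesis and uptake 6 rose and 6 fell (27.3% each), beside 18.6% and 16.4% of all genes. The list median was 0.16. The sterol exporters Abca1 (-2.20 ± 0.12) and Abcg1 (-1.11 ± 0.09) and the early enzyme Hmgcs1 (-1.41 ± 0.19) were lower. Late enzymes went both ways. Cyp51 (0.58 ± 0.10, not called after quantile normalization) and Dhcr7 (0.56 ± 0.09) were higher. Msmo1 was lower, also after quantile normalization (-0.89, adjusted p = 0.016).

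Some genes with large changes at 6 h had moved back toward their 0 h values by 24 h. They were chosen after their values were seen. F13a1, the coagulation factor XIII chain A, stood at 1.77 and 1.84 at 0 h, -1.21 and -1.34 at 6 h and 1.11 and 0.93 at 24 h. A930003A15Rik stood at 1.71 and 1.89, then -1.76 and -1.91, then 1.08 and 0.97. Morc1, a germ cell gene, stood at 1.43 and 1.74, then -0.92 and -1.29, then 0.65 and 0.58. Dmd, which encodes dystrophin, went the other way, from -0.76 and -1.76 to 1.40 and 1.32 and back to -0.62 and -1.13. The steps from 6 h to 24 h, tested with limma, were 2.29, 2.86, 1.72 and -2.23 with adjusted p-values of 0.00016, 7.4e-05, 0.002 and 0.0045. Against 0 h, F13a1, A930003A15Rik and Morc1 were still lower at 24 h, by -0.79, -0.77 and -0.97 (adjusted p = 0.0044, 0.0024 and 0.0056), and Dmd did not pass (0.39, adjusted p = 0.38). The steps from 6 h to 24 h all share the same 2 arrays at 6 h, and the changes against 0 h share the same 2 arrays at 0 h.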
